A study of Mus musculus with 6 samples.

Results

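AP-1 is a family of transcription factors of the basic leucine zipper (bZIP) type, and 10 of its genes and near relatives are described here: Fos, Fosb, Fosl1, Fosl2, Jun, Junb, Jund, Atf3, Maff and Batf. They were chosen by name, and each was read from the probe set annotated to that gene alone, taking the one with the highest mean over the 6 arrays where there were several. Of the 10 genes, 9 had such a probe set, among 22180 genes measured in all. Fosl1, which encodes the Fos-family protein FRA1, was represented only by a probe set annotated to 2 genes, Fosl1 and Ccdc85b, so no value is given for it.

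The cells were Raw 264.7, an established mouse line of monocyte and macrophage type, expanded in DMEM with 10% serum and then starved. The PBS group had 3 arrays of cells kept in DMEM with 2% serum. The IL-33 group had 3 arrays of cells in the same medium with 50 ng/ml of IL-33, an alarmin cytokine related to IL-1. No genetic change, treatment time or shared culture day is given in the sources used here, and no source says whether the 3 samples of a group were separate cultures. The p-values therefore reflect the spread between these samples alone, which may be technical. Groups follow the titles of the samples. In the descriptions, the names of the arrays carry the letters IL on the PBS samples and P on the IL-33 samples, so every direction below would turn if the titles were exchanged.

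bZIP proteins bind DNA as dimers, with a basic region that contacts the site and a zipper of leucines that joins the partners. Fos proteins pair with Jun proteins, Jun proteins also pair with each other, ATF3, BATF and the small Maf proteins join or compete with these dimers, and the classical AP-1 dimer binds the TPA response element, while dimers with ATF proteins favour the related cyclic AMP response element (CRE). In macrophages, IL-1 family receptors signal through MyD88 to NF-kB and the MAP kinases, which act on AP-1 both by inducing Fos, Jun, Atf3 and their relatives within minutes to hours and by phosphorylating the proteins. An array measures only the transcripts, so phosphorylation and DNA binding were not measured.

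None of the 9 measured genes passed the test between the IL-33 and PBS arrays. Each gene was tested with limma over all 22180 genes with Benjamini-Hochberg adjustment, and passing means an adjusted p under 0.05. In that fit 131 genes passed, which is 0.591% of those tested (61 higher and 70 lower, or 57 and 102 with arrays centred on their 75th percentiles). The members' adjusted p lay between 0.184 and 0.803. At an unadjusted p under 0.05, 4 of the 9 members passed against 13.2% of all genes, and all 4 were lower in the IL-33 arrays, which was so for 6.74% of all genes. These 4 were Fosl2, Maff, Atf3 and Jun, and in each of them the highest IL-33 array lay below the lowest PBS array, as it did in 10.1% of all genes. In bulk RNA, fewer cells with a transcript and less transcript per cell cannot be told apart.

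The differences were small whichever way they pointed. On the log2 scale, the IL-33 minus PBS differences of the 9 members ran from -0.203 to 0.053, with a median of -0.119 against -0.005 over all genes tested. The median was -0.073 without PBS replicate 1. Of the 9 genes 7 had a difference below 0, against 52.1% of all genes. The lowest bound among the members' 95% intervals was -0.34, a level 1.26-fold lower, and the highest was 0.21, a ratio of IL-33 to PBS of 1.16. An average change of the array value beyond these bounds lies outside the single-gene interval of every measured member. Smaller changes in either direction do not lie outside all of these intervals. A change of the transcript itself may be larger, since array differences are compressed near both ends of the scale. Nearest to the arrays' medians of 5.31 to 5.36 were Batf, with means of 5.83 (PBS) and 5.88 (IL-33), and Fosb, with 6.12 and 6.0.

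**Figure D1:**
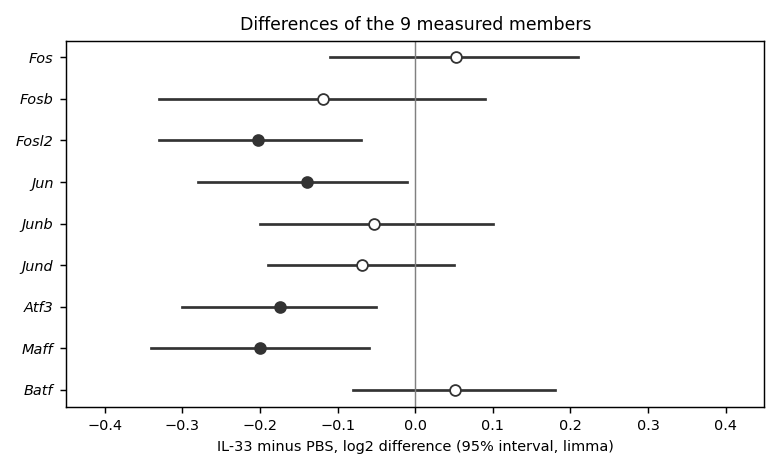
IL-33 minus PBS log2 difference (x axis) of each of the 9 measured genes (y axis), as points with 95% intervals from limma; filled points mark genes whose 3 IL-33 arrays all lay below the 3 PBS arrays. The filled genes are Fosl2, Jun, Atf3 and Maff, whose intervals end below 0, while the intervals of the other 5 genes include 0; no gene passed after adjustment over all genes.

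Fosl2 had the largest difference and the smallest p of the members. It encodes FRA2, a Fos-family protein without the strong activation domain of FOS that is known from osteoclasts and fibrotic tissue. Its log2 values were 9.65, 9.53 and 9.55 in PBS arrays 1 to 3 and 9.35, 9.38 and 9.39 in the IL-33 arrays. All IL-33 arrays were thus lower, and 0.135 separated the nearest arrays of the groups. The means were 9.58 ± 0.067 and 9.37 ± 0.022 (SD, n = 3 each), a difference of -0.203 ± 0.054 (log2, SE), a level 1.15-fold lower. The adjusted p was 0.184 (limma). Fosl2 passed under 2 of 15 other settings: when only the brighter genes were tested, those whose mean reached the median of all genes, with an adjusted p of 0.0446, and with a prior variance trended on intensity and robust to outliers, with 0.0216 (limma).

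Fos itself, the partner of Jun in the classical dimer and a textbook immediate early gene, had overlapping values in the groups. PBS arrays had log2 values of 6.89, 6.97 and 6.90, and IL-33 arrays had 7.07, 6.99 and 6.86. The highest and the lowest of the 6 values were both IL-33 arrays, so the PBS values lay inside the range of the IL-33 values. The difference was 0.05 ± 0.068 (log2, SE), with a 95% interval from -0.11 to 0.21 and an adjusted p of 0.803 (limma).

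Fosb, whose product has a long and a short form and is induced with Fos, had 1 PBS array apart from the others. Its log2 values were 6.22, 6.23 and 5.93 in the PBS arrays and 6.02, 6.0 and 5.98 in the IL-33 arrays. PBS replicate 3 was the lowest of the 6 arrays, below every IL-33 array, and the SD of the PBS group, 0.17, was the largest of any member in either group. The difference was -0.12 ± 0.088 (log2, SE), with an adjusted p of 0.634 (limma), and it ran from -0.218 without PBS replicate 3 to -0.073 without PBS replicate 1 and -0.067 without PBS replicate 2, with adjusted p of 0.263, 0.844 and 0.836.

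**Figure D2:**
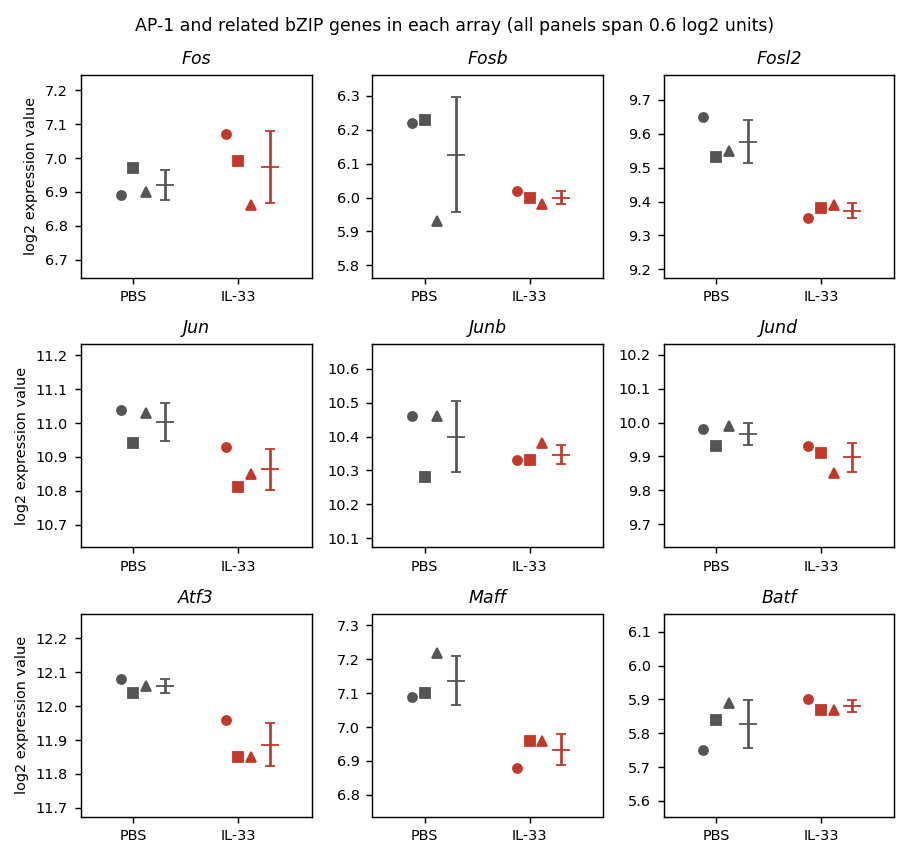
Log2 expression value (y axis) of each measured gene in the 3 PBS arrays (grey) and the 3 IL-33 arrays (red); circles, squares and triangles are replicates 1, 2 and 3, the bars are mean ± SD, and every panel spans the same height. The groups lie apart in Fosl2, Maff, Atf3 and, by 0.013, Jun, and overlap in Fos, Fosb, Junb, Jund and Batf.

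Jun encodes the Jun-family protein with the strongest activation domain and is the best known target of the kinase JNK. Its log2 values were 11.04, 10.94 and 11.03 in the PBS arrays and 10.93, 10.81 and 10.85 in the IL-33 arrays. The groups did not overlap, but PBS replicate 2 and IL-33 replicate 1 were only 0.013 apart. The means were 11.00 ± 0.055 and 10.86 ± 0.06 (SD, n = 3 each), and the difference was -0.14 ± 0.057 (log2, SE), or 1.10-fold lower. The adjusted p was 0.36 (limma). It did not pass under any of the 15 other settings, where its adjusted p lay between 0.0724 and 0.589.

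Junb, a Jun protein that often opposes JUN, was measured at 10.46, 10.28 and 10.46 in the PBS arrays and at 10.33, 10.33 and 10.38 in the IL-33 arrays. PBS replicate 2 was the lowest of the 6, and the other PBS arrays were the highest. Its difference was -0.05 ± 0.064 (log2, SE) with an adjusted p of 0.785 (limma). It was -0.111 without PBS replicate 2, and -0.025 and -0.023 without PBS replicates 1 and 3.

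Jund, the Jun gene expressed most steadily in resting cells, had log2 values of 9.98, 9.93 and 9.99 in the PBS arrays and of 9.93, 9.91 and 9.85 in the IL-33 arrays. PBS replicate 2 and IL-33 replicate 1 were both at 9.93, and the difference was -0.07 ± 0.05 (log2, SE) with an adjusted p of 0.629 (limma). Jund was the only member with a further probe set of its own. On that probe set the values were 6.91, 7.09 and 6.71 against 7.05, 6.81 and 6.81, which overlap, with a difference of -0.012 ± 0.112 (log2, SE). All 3 Jun genes thus had a difference below 0, and in the Fos family Fosb and Fosl2 did and Fos did not.

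Atf3 encodes a stress-induced bZIP factor that represses inflammatory genes in macrophages after Toll-like receptor signals. Its log2 values were 12.08, 12.04 and 12.06 in the PBS arrays and 11.96, 11.85 and 11.85 in the IL-33 arrays. Every IL-33 array was lower, by at least 0.079, and IL-33 replicate 1 was the nearest to the PBS group. The means were 12.06 ± 0.018 and 11.89 ± 0.066 (SD, n = 3 each), a difference of -0.174 ± 0.054 (log2, SE), or 1.13-fold lower. The adjusted p was 0.238 (limma). Atf3 passed under 1 of 15 other settings, the trended and robust prior variance, with an adjusted p of 0.0107. The arrays' scale ended between 13.62 and 13.66, and array differences are compressed toward that end.

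Maff encodes a small Maf protein, which has no activation domain of its own and pairs with NRF2, BACH1 and other bZIP factors. Its log2 values were 7.09, 7.10 and 7.22 in the PBS arrays and 6.88, 6.96 and 6.96 in the IL-33 arrays. The groups did not overlap, with 0.127 between the nearest arrays. The means were 7.14 ± 0.071 and 6.94 ± 0.046 (SD, n = 3 each), and the difference was -0.20 ± 0.058 (log2, SE), or 1.15-fold lower. The adjusted p was 0.213 (limma). Among the brighter genes alone its adjusted p was 0.0597, and it passed under no other setting.

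Batf, which pairs with Jun proteins and joins IRF4 or IRF8 on composite sites, had log2 values of 5.75, 5.84 and 5.89 in the PBS arrays and of 5.90, 5.87 and 5.87 in the IL-33 arrays. The IL-33 values lay within or just above the range of the PBS values. The difference was 0.05 ± 0.055 (log2, SE), with a 95% interval from -0.08 to 0.18 and an adjusted p of 0.759 (limma).

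Read array by array, most members were lower than their own average in each IL-33 array, though not always the same ones. In each of the 3 IL-33 arrays 7 of the 9 genes lay below their own 6-array mean, against 2, 3 and 2 genes in PBS arrays 1 to 3. These counts largely restate the group differences above, since each mean is taken over the same 6 arrays. No such count was made over all genes. In IL-33 replicate 1 Jun and Atf3 deviated by only -0.01 each. In IL-33 replicate 3 Fos was among the genes below, at -0.09, and Junb was not. The median deviation of the 9 genes from their own means was 0.083, 0.025 and 0.074 in the PBS arrays and -0.011, -0.059 and -0.08 in the IL-33 arrays. Over all genes the array medians of the same quantity lay between -0.006 and 0.014. By that median IL-33 replicate 1 was the nearest of its group to the PBS arrays. It held the highest of the 6 values of Fos and Batf and the lowest of Fosl2 and Maff.

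The count of members that passed lay between 0 and 2 over the settings tried. With the trended and robust prior variance 2 members passed, Fosl2 and Atf3, in a fit in which 4.51% of genes passed. Among the brighter genes alone 1 passed, Fosl2, in a fit in which 6.85% did. Under the other 13 settings none passed, including all 6 fits with 1 array left out. Every member kept the sign of its difference under all 15 settings, although Fos came as low as 0.003 without IL-33 replicate 1 and Batf as low as 0.011 without PBS replicate 1.

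**Figure D3:**
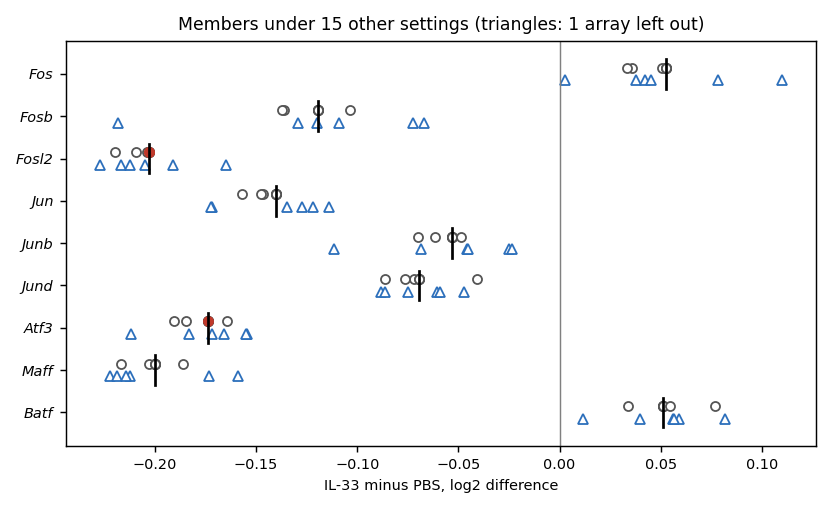
IL-33 minus PBS log2 difference (x axis) of each measured gene (y axis) under 15 other settings; triangles leave out 1 array, circles change the filter, normalization, probe sets or variance model, black bars are the values as reported, and filled red circles have an adjusted p under 0.05. Differences stayed between -0.227 and -0.165 for Fosl2 and between -0.212 and -0.155 for Atf3, the genes with filled circles.

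The promoters of the 4 genes with separated groups are shown because several genes of this family are regulated through CRE-like sites in their own promoters, known for Jun and Atf3. The sequences are RefSeq's, build GRCm38.p6, and hold the 250 bases before the annotated start on the gene's strand, with capitals at each match to TNACNTCA on either strand. That motif covers the CRE (TGACGTCA) and the sites TGACATCA and TTACCTCA of the Jun promoter, and it was chosen with these sequences in view. The windows are chr5:32136222-32136471 (plus strand) for Fosl2, chr4:95052223-95052472 (minus strand) for Jun, chr1:191183334-191183583 (minus strand) for Atf3 and chr15:79347270-79347519 (plus strand) for Maff, whose table has 3 starts, of which number 2 is shown.

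Fosl2: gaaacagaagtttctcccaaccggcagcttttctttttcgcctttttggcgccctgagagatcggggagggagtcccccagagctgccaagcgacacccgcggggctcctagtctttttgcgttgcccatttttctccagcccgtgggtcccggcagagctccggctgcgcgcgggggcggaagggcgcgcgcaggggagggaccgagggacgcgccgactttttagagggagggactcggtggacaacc

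Jun: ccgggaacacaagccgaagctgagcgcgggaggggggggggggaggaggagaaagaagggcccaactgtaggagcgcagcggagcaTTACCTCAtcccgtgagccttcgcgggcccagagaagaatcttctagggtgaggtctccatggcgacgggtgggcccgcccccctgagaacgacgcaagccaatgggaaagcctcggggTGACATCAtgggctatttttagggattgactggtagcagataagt

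Atf3: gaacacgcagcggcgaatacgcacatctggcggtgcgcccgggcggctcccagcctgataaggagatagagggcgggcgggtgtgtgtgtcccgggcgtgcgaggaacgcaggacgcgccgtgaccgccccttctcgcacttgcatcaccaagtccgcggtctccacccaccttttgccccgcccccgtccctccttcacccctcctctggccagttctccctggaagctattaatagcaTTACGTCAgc

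Maff: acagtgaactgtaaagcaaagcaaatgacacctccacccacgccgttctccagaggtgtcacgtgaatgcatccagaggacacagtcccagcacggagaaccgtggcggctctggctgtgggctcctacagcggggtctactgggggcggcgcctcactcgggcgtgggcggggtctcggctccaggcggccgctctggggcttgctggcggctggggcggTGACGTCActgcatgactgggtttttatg

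Jun held 2 matches, TTACCTCA beginning 164 bases and TGACATCA beginning 45 bases before the start. Atf3 held TTACGTCA beginning 10 bases before its start. Maff held TGACGTCA beginning 29 bases before the start shown and TGACATCA beginning 45 bases before the start numbered 3, and no match before start 1. Fosl2 held none, nor did Fos, Fosb, Junb or Batf, while Jund, whose groups overlapped, held 1. The motif was held by 14% of all 32851 windows. The TPA response element, searched as TGANTCA on both strands, was in none of the members' 11 windows and in 6.75% of all, and a CArG box, the site of SRF, was in none of them and in 1.47% of all. A match is a description of letters and not of binding, and a window without one says only that these letters are not in it. The table holds no window for Fosl1.

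Genes that work around AP-1 were read from 6 lists, written with earlier results of these data known. Of 37 further bZIP factors 35 were measured and none passed, with a median log2 difference of 0.029 and 20 genes above 0. At an unadjusted p under 0.05, 4 of the 35 were higher and none lower, against 6.42% and 6.74% of all genes. The smallest p belonged to Cebpd, a C/EBP factor of acute inflammation, with log2 values of 7.28, 7.27 and 7.23 in the PBS arrays and 7.68, 7.55 and 7.50 in the IL-33 arrays. The groups lay apart, and the difference was 0.31 ± 0.062 (log2, SE) with an adjusted p of 0.0986 (limma). Cebpd passed among the brighter genes alone, with an adjusted p of 0.0201, and with the trended and robust prior variance, with 0.0202. Nfe2, a partner of the small Maf proteins, had a difference of 0.21 ± 0.054 (log2, SE) and an adjusted p of 0.17 (limma). Its mean log2 value was 4.56, below the arrays' medians of 5.31 to 5.36.

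Upstream, 26 of 31 MAP kinases and their activators were measured and none passed, with a median log2 difference of -0.003. At an unadjusted p under 0.05, 3 of the 26 were higher and 1 lower, so the 4 genes are a share near the 13.2% of all genes. Mapk11, the beta form of the kinase p38, had a difference of 0.16 ± 0.046 and Map3k5, the stress kinase ASK1, one of 0.21 ± 0.059 (log2, SE), with adjusted p of 0.202 and 0.213 (limma). Mapk11 passed under the same settings as Cebpd, with 0.0428 and 0.0325. Of 12 regulators of Fos transcription, SRF and its partners, the CREB family and MEF2, all were measured and none passed, with 1 higher and 1 lower at an unadjusted p under 0.05. Mrtfa, an actin-regulated coactivator of SRF, had a difference of -0.22 ± 0.057 and Mef2c one of 0.16 ± 0.053 (log2, SE), with adjusted p of 0.17 and 0.257. Mrtfa passed under both of those settings, with 0.0427 and 0.02, and Mef2c under the trended and robust prior variance, with 0.0467. Of 18 AP-1 partners and turnover factors 14 were measured and none passed, with 1 higher and 1 lower at an unadjusted p under 0.05. In this list and in that of the Fos regulators the share was near the 13.2% of all genes.

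The higher and the lower gene of that last list, at an unadjusted p under 0.05, were Irf8 and Irf4, IRF partners of BATF. Irf8, a myeloid lineage factor, had log2 values of 10.46, 10.47 and 10.52 in the PBS arrays and 10.76, 10.80 and 10.82 in the IL-33 arrays. Irf4 had 5.40, 5.31 and 5.18 in the PBS arrays and 4.85, 4.85 and 5.04 in the IL-33 arrays. The groups lay apart in both genes, in opposite directions. The differences were 0.31 ± 0.049 for Irf8 and -0.38 ± 0.081 for Irf4 (log2, SE), with adjusted p of 0.0551 and 0.111 (limma). Irf8 passed under 5 of 15 other settings, and Irf4 under none of the 14 in which it was tested. The mean log2 value of Irf4, 5.11, lay below the arrays' medians of 5.31 to 5.36.

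Other immediate early genes, some of which MAP kinases and SRF induce together with Fos, pointed both ways. Of 34 genes 33 were measured. Of these 1 passed and fell, and 32 did not pass, and the median log2 difference of the 33 was -0.042. The call count of this list depended on the setting: 10 passed among the brighter genes alone (6 higher and 4 lower) and 12 with the trended and robust prior variance (6 higher and 6 lower), fits in which 6.85% and 4.51% of all genes passed. For scale, 0.316% of all genes tested fell and 0.275% rose. The gene that fell was Dusp1, the phosphatase that switches off p38 and JNK. Its log2 values were 11.22, 11.10 and 11.14 in the PBS arrays and 10.65, 10.47 and 10.39 in the IL-33 arrays. All IL-33 arrays were well below the PBS arrays, and the difference was -0.65 ± 0.077 (log2, SE), or 1.57-fold lower. The adjusted p was 0.0246 (limma). Dusp1 did not pass when any 1 array other than IL-33 replicate 1 was left out, nor over all probe sets or with the replicate block, with adjusted p of 0.12 and 0.0801.

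Gadd45b, a stress gene, had the next smallest p in that list, with a difference of -0.37 ± 0.062 (log2, SE) and an adjusted p of 0.0618 (limma), and it passed under 3 of 15 other settings. At an unadjusted p under 0.05, 6 of the 33 genes were higher and 7 lower, against 6.42% and 6.74% of all genes. Egr1 and Ier2, which SRF induces together with Fos, had differences of 0.254 and 0.341, and Myc and Egr2 had -0.516 and -0.388. Adjusted p of these 4 genes, chosen after their values were seen, lay between 0.101 and 0.213 (limma). Egr1, Ier2 and Myc passed under 2 other settings each and Egr2 under 1.

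**Figure D4:**
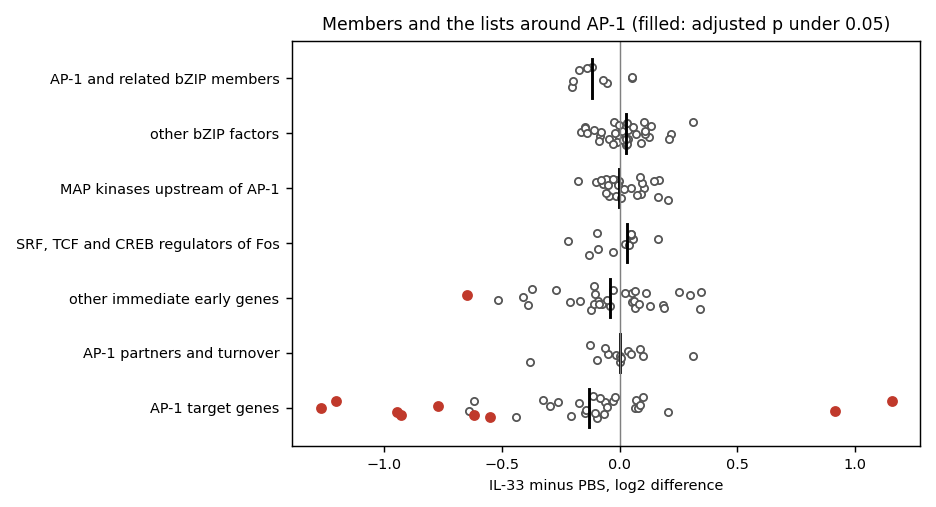
IL-33 minus PBS log2 difference (x axis) of each gene in the 9 measured members and in 6 lists of genes around AP-1 (y axis); filled red points have an adjusted p under 0.05 and black bars are medians. The members lie between -0.203 and 0.053, and the filled points are Dusp1 among the immediate early genes and 9 of the 34 AP-1 target genes.

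The last of the lists holds genes known as AP-1 targets. Of 37 such targets of macrophages and osteoclasts 34 were measured, of which 7 fell and 2 rose, while 25 did not pass. That is 26.5% passing against 0.591% of all genes, and the median log2 difference was -0.129. The list was written knowing that several of its genes had passed, so this share is no independent evidence, and several of these genes also respond to NF-kB. Serpinb2, the plasminogen activator inhibitor PAI-2, fell from values of 10.03, 10.11 and 10.07 in the PBS arrays to 8.99, 8.73 and 8.68 in the IL-33 arrays. Mmp12, the macrophage elastase, fell from 9.59, 9.67 and 9.50 to 8.41, 8.40 and 8.32. The nearest arrays of the groups were 1.047 apart in Serpinb2 and 1.087 in Mmp12, and both genes passed whichever array was left out.

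The collagenase Mmp8 and the cytokine Il1a fell by 0.95 and 0.93 on the log2 scale, with adjusted p of 0.0351 and 0.0183 (limma). Csf2, the growth factor GM-CSF, rose from 6.63, 7.02 and 6.74 in the PBS arrays to 8.10, 7.97 and 7.79 in the IL-33 arrays. That is a difference of 1.158 (log2), which was 0.87 with its probe sets averaged, with an adjusted p of 0.00653 (limma). Cd69, an early activation antigen whose promoter binds AP-1, rose from 7.95, 8.02 and 7.72 to 8.71, 8.85 and 8.88. The groups lay apart in both, by 0.768 and 0.693. The 3 other genes that fell were Mmp9, Il1b and Dcstamp, named after their values were seen, by 0.77, 0.55 and 0.62 on the log2 scale. Mmp9 did not pass in 2 of the 6 fits with an array left out, and the other 6 genes in 3 to 6 of them. The count of targets that passed was 3 to 5 when any 1 array other than IL-33 replicate 1 was left out, and 6 without that array. It was 14 among the brighter genes alone (2 higher and 12 lower), where 28 targets were tested. With the trended and robust prior variance it was 16 (2 higher and 14 lower). In these fits 6.85% and 4.51% of all genes tested passed. The count was 4 with the replicate block and 3 over all probe sets, all lower. Over all probe sets Csf2 and Cd69 had adjusted p of 0.0862 and 0.0785 (limma).

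Whether AP-1 took part in the changes of these targets was not tested. The labelled cell type was checked with 10 macrophage markers: Lyz2, Cd68, Cd14, Csf1r and Mertk had mean log2 values of 12.88, 12.77, 12.31, 11.64 and 5.16. Levels of different probe sets depend on the probes as well as on the transcripts, so these values and those of the lists below are descriptions and rank no gene above another. In that list 1 gene passed, Fcgr1, which rose by 0.493 (log2) and did not pass when any 1 array was left out, or under 3 of the 9 other settings. Adgre1 went the other way, with a difference of -0.289 (log2) and an adjusted p of 0.114 (limma). Among the brighter genes alone, and with the trended and robust prior variance, 1 macrophage marker passed as higher and 1 as lower. None of 8 fibroblast, 9 mast cell and basophil and 8 measured lymphocyte markers passed, and their mean log2 values lay between 2.76 and 6.31. Summed log2 values of these 3 lists ran from 40.8 to 41.1, 34.9 to 36.3 and 35.4 to 36.6 in the PBS arrays, and from 40.5 to 40.9, 35.3 to 35.8 and 35 to 35.9 in the IL-33 arrays. There is no read depth here, and precision depends on how many arrays there are and on the spread of each probe set between them. The members' standard errors of 0.05 to 0.088 lay around the median of 0.073 over all genes. Arrays of 1 group correlated at r = 0.9972 to 0.9980 across genes, and arrays of different groups at 0.9967 to 0.9971.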

How the data were processed

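Total RNA of 6 samples was hybridised to whole-transcript arrays. The table the authors deposited holds 1 log2 value per probe set and array (41345 probe sets), made with RMA per the submitters' processing notes. No version of RMA is named there, nor its settings. RMA forces alike distributions on the arrays, so a shift shared by most genes would be hidden. Array differences are also compressed near both ends of the scale.

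Probe sets with exactly 1 gene symbol in the platform annotation (23521) gave 22180 genes. The model was limma's (version 3.58.1, R 4.3.3; lmFit, then eBayes, without covariates or filter), which gave the 95% intervals too. Levels of different probe sets were not tested against each other. The fit was tested on simulated data. Motifs and figures were made in Python 3.11.15 with matplotlib 3.10.9.

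The members and lists were chosen with earlier results of these data known. Named were all members, and in each list up to 6 genes that passed, largest change first, or the 2 with the smallest p where fewer than 2 passed. The alternatives were filters on dim genes, all probe sets, quantile normalization repeated, arrays centred on their 75th percentiles, a gene's probe sets averaged, the replicate block, a trended and robust prior variance, array weights, and leaving out each array. Each list's genes, the measured ones only, were read from the same fit.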

Additional observations from a re-analysis of the deposited data

How the results depend on the processing

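The count of all genes that passed, 131, was 760 when only genes whose mean reached the median were tested, 296 when it had to reach the 25th percentile, 17 over all probe sets other than controls, 1000 with the trended and robust prior variance, and 15 to 83 with 1 array left out. It stayed within 1.5 times of 131 with repeated quantile normalization, averaged probe sets, array weights and centring on the 75th percentile, which gave 57 higher and 102 lower. Members that passed, 0 as reported, were 1 with the filter at the median and 2 with the trended and robust prior variance. The members' median difference was -0.129 to -0.073 with 1 array left out. Among the members and the other genes named, no difference changed sign under an alternative in which the gene was tested. The cause of these shifts was not tested. By construction, the filters and the use of all probe sets change both the number of genes adjusted over and the prior variance. Leaving out an array makes a group smaller. The shares of these parts in the shifts were not separated.

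Both groups carry replicate numbers 1 to 3. No source says that the numbers pair samples, so they were not taken as pairs. Across the brighter genes, those whose mean reached the median, same-numbered arrays deviated from their group means with correlations of 0.082, 0.088 and 0.022. Without the values of differently numbered arrays beside them, these correlations do not decide whether the numbers pair samples. With the replicate block 21 genes passed, none of them a member, and the count of AP-1 targets was 4 and of other immediate early genes 0.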
